A study of Mus musculus with 9 samples.

Results

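Monocytes and macrophages are myeloid cells that clear particles, immune complexes and lipids. They are recognised by receptors for antibody (Fc receptors), complement C1q, scavenger receptors, lysozyme and CSF1R, the receptor through which M-CSF and IL-34 keep them alive and drive their maturation. Leukemia cells driven by the MLL-AF9 fusion resemble granulocyte and monocyte progenitors, and many of these genes come on as such progenitors mature. Here 32 monocyte and macrophage marker genes were followed, taken by gene name from the 55536 genes of the expression table, and all 32 were found there.

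RNA sequencing was performed on sorted bone marrow leukemia cells of C57BL/6J recipient mice, in 3 groups of 3 libraries. Per the study's supplement, the leukemia had been started in Lin- cells of C57B6.SJL mice. The sorted cells carried MLL-AF9 with GFP and, from a second retrovirus (an MSCV vector with a PGK promoter before BFP), either BFP alone or IL-34 with BFP. Mice of 6 to 8 weeks received 100000 GFP+BFP+ cells without irradiation, and cells were sorted on day 18. MA9-c-Kit+ and the MA9-c-Kit- cells came from mice with the blank vector and were separated by c-Kit, the receptor for stem cell factor that marks the immature leukemia cells. MA9-IL-34 cells were c-Kit+ cells of mice with the IL-34 vector, so that they differ from MA9-c-Kit- cells in both vector and sort. The labels do not say whether a library stands for 1 mouse or several, so the spread between libraries may be technical in part. Values are TPM (transcript abundance relative to the total of the library), which are scaled for transcript length, and the read depth behind them is unknown.

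Kit was at 1.63 to 2.9 TPM in the MA9-c-Kit- libraries, 70.6 to 135 TPM in the MA9-c-Kit+ libraries and 90.5 to 112 TPM in the MA9-IL-34 libraries, so Kit follows the sort named in the labels. Il34 was listed at only 0.11, 0.10 and 0.14 TPM in the MA9-IL-34 libraries and at 0 in the other groups. These values are of the mouse gene and do not show the overexpression, which the study checked by qRT-PCR, Western blot and ELISA. The primer list of the study names its IL-34 pair hIL-34, so that check and these values may not measure the same sequence. Whether reads of the vector's IL-34 would be counted here is not given in the sources used. Each library had 12577 to 12972 genes at 1 TPM or more. The 6 T cell markers summed to at most 0.72 TPM and the 5 NK cell markers to at most 0.69 TPM in any library. The 6 B cell markers summed to 19.6 to 42.0 TPM, and 1 of them reached a mean of 1 TPM in each group. The 7 stromal and endothelial markers summed to 61.2 to 194 TPM, highest in MA9-c-Kit+ replicate 2, and 2 reached such a mean. The 8 granulocyte-monocyte progenitor markers (such as Mpo and Elane) summed to 2868 to 4090 TPM in MA9-c-Kit-, 15310 to 24710 TPM in MA9-c-Kit+ and 15690 to 20670 TPM in the MA9-IL-34 libraries. A pair of libraries stood apart. In MA9-c-Kit- replicate 3 the 8 erythroid markers summed to 2440 TPM, against 15.7 and 53.1 TPM in the other MA9-c-Kit- libraries. MA9-c-Kit+ replicate 2 had 5.10% of its TPM in mitochondrial genes, against 10.7% and 11.1% in the others, and it was the highest MA9-c-Kit+ library for many of the marker genes, as described below.

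Several of the 32 genes sit in small tandem families, where sequence shows how far their reads can be told apart. Lyz1 and Lyz2, which encode the lysozymes that cleave bacterial cell walls, lie side by side within 15.5 kb of chromosome 10 (GRCm38, 117277331 to 117292868). Their coding sequences are both 447 bases and identical at 425 of them (95.1%). The opening 90 coding bases are shown because the levels of these genes differ so widely, with the 7 bases that differ in capitals (GENCODE M21 transcripts, GRCm38).
Lyz1: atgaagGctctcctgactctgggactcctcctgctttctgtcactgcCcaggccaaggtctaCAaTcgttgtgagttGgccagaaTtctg
Lyz2: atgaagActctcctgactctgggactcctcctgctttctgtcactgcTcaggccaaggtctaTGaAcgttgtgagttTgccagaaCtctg
The low-affinity Fc receptor genes Fcgr2b, Fcgr4 and Fcgr3 lie within 106.3 kb of chromosome 1 (170958617 to 171064935), and the coding sequences of Fcgr2b and Fcgr3 are 87.5% identical over 785 aligned bases, those of Fcgr3 and Fcgr4 68.3% over 725. C1qa, C1qb and C1qc occupy 18.7 kb of chromosome 4 (136880129 to 136898803) and share 63.3% to 65.1% of aligned bases. Pirb is 95.7% identical to its neighbour in the family, Pira2, over 2043 aligned bases, and Ly6c2 is 93.8% identical to Ly6c1 over 389. How reads common to such genes were counted is not given in the sources used here, so the levels of Lyz1, Pirb, Ly6c2 and the pair Fcgr2b and Fcgr3 are uncertain to that extent.

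The markers were most abundant in MA9-c-Kit- cells. The 32 genes together made up 1.51% to 2.44% of all TPM in MA9-c-Kit-, 0.323% to 0.694% in MA9-c-Kit+ and 0.303% to 0.318% in MA9-IL-34 libraries. In MA9-c-Kit- cells Lyz2 led with 37% to 48.9% of that sum. Ly6c2 led in the other groups, with 51.9% to 64.7% in MA9-c-Kit+ and 59.3% to 61.1% in MA9-IL-34 cells. Fcgr3 was the second gene in MA9-IL-34 cells, at 11.5% to 12.7% of the sum, against 3.52% to 4.53% in MA9-c-Kit+ cells. For 19 of the 32 genes the group means ran from MA9-c-Kit- over MA9-c-Kit+ down to MA9-IL-34 cells. For 6 (Adgre1, Fcgr2b, Fcgr3, Lyz1, Ms4a7 and Vcan) MA9-c-Kit- was highest and MA9-c-Kit+ lowest. C1qa, C1qb, C1qc and Mrc1 ran the opposite way from the 19, with MA9-IL-34 highest and MA9-c-Kit- lowest. Fcgr4 had its highest mean in MA9-IL-34 and its lowest in MA9-c-Kit+ cells, and the barely detected Fcgr1 and Cd36 were highest in MA9-c-Kit+. These orders are of means, and many neighbours in them overlap between libraries. In bulk RNA, fewer cells of a type and less RNA per cell cannot be told apart.

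**Figure D1:**
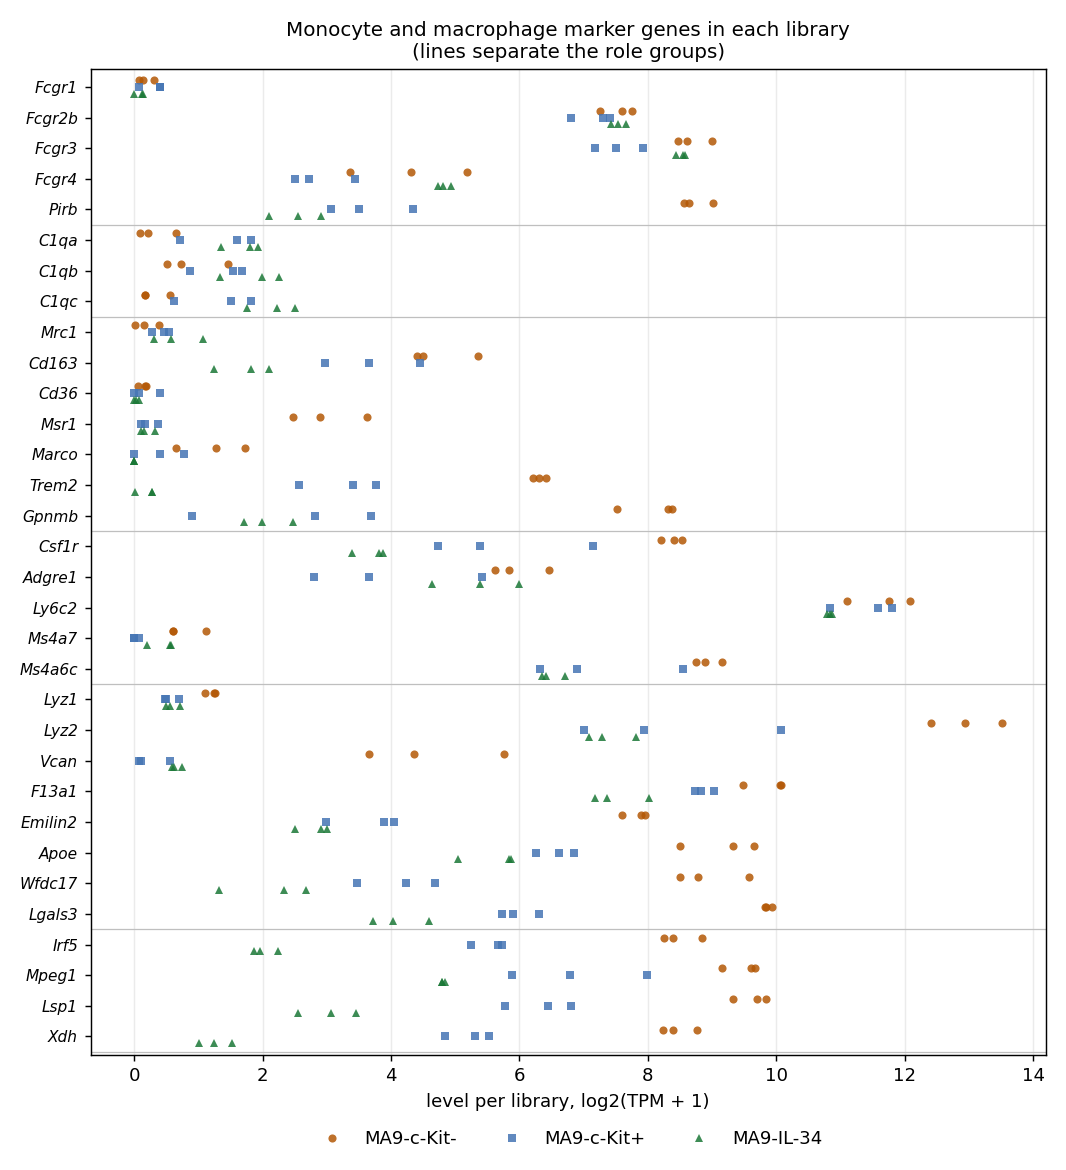
Level of each of the 32 marker genes in each of the 9 libraries on the log2(TPM + 1) scale (x axis), with genes on the y axis grouped by role and 1 symbol per library (circles MA9-c-Kit-, squares MA9-c-Kit+, triangles MA9-IL-34, 3 each). For Irf5, Mpeg1, Lsp1 and Xdh at the bottom the groups separate, with MA9-c-Kit- libraries highest and MA9-IL-34 libraries lowest, whereas for Fcgr3 and Fcgr4 the MA9-IL-34 libraries lie to the right of every MA9-c-Kit+ library.

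Of the 32 genes, 27 reached 1 TPM in at least 3 libraries and were tested together with all 13722 such genes. Lyz1, Vcan and Msr1 passed only through MA9-c-Kit- libraries and so could only be low elsewhere. C1qa and C1qc reached 1 TPM in no MA9-c-Kit- library, and so could only come out higher than in MA9-c-Kit- cells. A gene is called higher or lower when the fitted difference in log2(TPM + 1) is at least 2-fold and the adjusted p is under 0.05 (limma, Benjamini-Hochberg over all genes tested). In MA9-IL-34 relative to MA9-c-Kit+ cells, 10 of the 27 were lower (Cd163, Csf1r, F13a1, Irf5, Lgals3, Lsp1, Mpeg1, Trem2, Wfdc17 and Xdh) and 1, Fcgr4, was higher, where 3.38% of all genes tested were lower and 3.86% higher. The median difference of the 27 was -0.83 on the log2(TPM + 1) scale, and that of all genes tested 0.01. In MA9-IL-34 relative to MA9-c-Kit- cells 18 were lower and 2, C1qa and C1qc, were higher, against 12.7% and 11.3% of all genes, with a median of -3.58 beside 0.06. In MA9-c-Kit+ relative to MA9-c-Kit- cells 20 were lower and the same 2 higher, against 9.15% and 5.66% of all genes, with a median of -2.59 beside 0.03. Of all 32 genes, the untested ones included, 12 had every MA9-IL-34 library below and 5 every one above the MA9-c-Kit+ libraries. Of all genes tested 15.8% and 18.4% did. Against the MA9-c-Kit- libraries these counts were 22 and 2, beside 30.0% and 34.0% of all genes tested. For MA9-c-Kit+ against MA9-c-Kit- libraries they were 21 and 2, beside 22.4% and 23.2%. The untested Ms4a7 is among the 5, the 22 and the 21, and the untested Marco among the 22. Without the 5 genes whose direction against MA9-c-Kit- cells the filter fixed (Lyz1, Vcan, Msr1, C1qa and C1qc), 16 of 22 were lower in MA9-IL-34 and 18 in MA9-c-Kit+ cells relative to MA9-c-Kit- cells. These comparisons share libraries, so their calls are not independent of each other. Without MA9-c-Kit+ replicate 2 the counts were 10 lower and 3 higher in MA9-IL-34 relative to MA9-c-Kit+ cells, and 19 lower in MA9-c-Kit+ relative to MA9-c-Kit- cells, where C1qa and C1qc no longer passed. Without MA9-c-Kit- replicate 1, 2 or 3 the latter count was 13, 15 or 17, Msr1 and Vcan then being untested. Neither C1q gene passed without replicate 1 or 3, and C1qa alone passed without replicate 2.

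**Figure D2:**
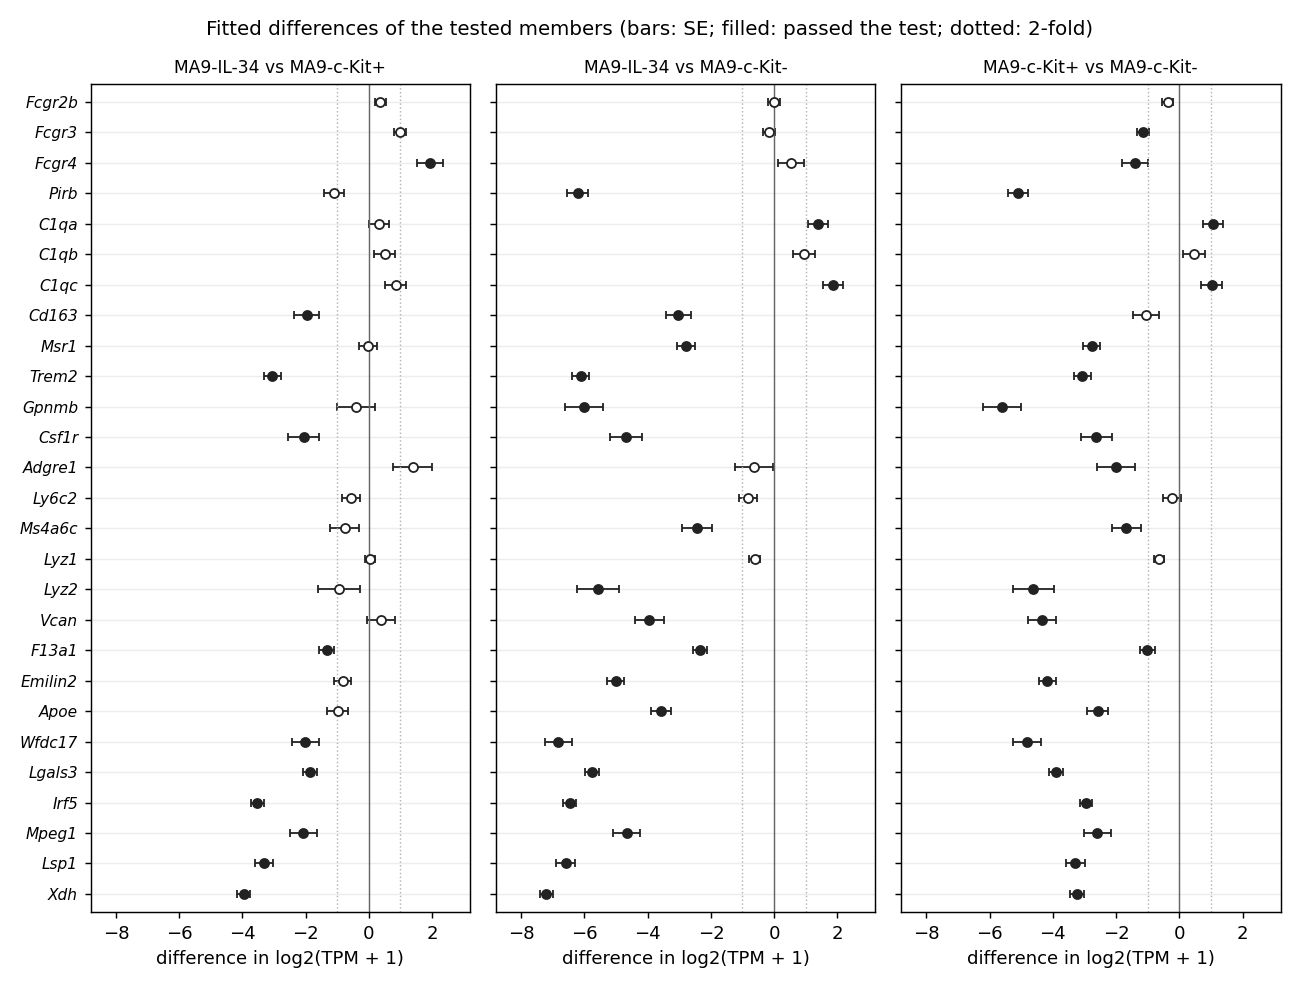
Fitted difference in log2(TPM + 1) (x axis) of the 27 tested marker genes (y axis) in each comparison of 3 against 3 libraries. Points are estimates, bars are standard errors, filled points passed the test and dotted lines mark a 2-fold difference. Against MA9-c-Kit+ cells only Fcgr4 passed on the right and 10 genes on the left, and against MA9-c-Kit- cells most points lie far to the left, the Fc receptors, Adgre1, Ly6c2 and Lyz1 closer to 0 in MA9-IL-34 cells, and the C1q genes on the right.

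The 4 intracellular markers were lower in each of the 3 comparisons, with a median difference of -3.42 in MA9-IL-34 relative to MA9-c-Kit+ cells and -3.09 in MA9-c-Kit+ relative to MA9-c-Kit- cells. Irf5 encodes a transcription factor that switches on inflammatory cytokines in macrophages downstream of Toll-like receptors. It was at 459, 334 and 303 TPM in the MA9-c-Kit- libraries, 52.1, 49.8 and 37.0 TPM in the MA9-c-Kit+ libraries and 2.90, 3.75 and 2.63 TPM in the MA9-IL-34 libraries. No library of 1 group reached the range of another. Its difference in MA9-IL-34 relative to MA9-c-Kit+ cells was -3.53 on the log2(TPM + 1) scale (SE 0.19, adjusted p = 7.78e-06, limma), and the mean TPM was 15.0-fold lower. In MA9-c-Kit+ relative to MA9-c-Kit- cells the difference was -2.94 (SE 0.19, adjusted p = 1.6e-05).

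Xdh, the enzyme that makes uric acid from xanthine, was at 432, 301 and 336 TPM in the MA9-c-Kit- libraries. The MA9-c-Kit+ libraries had 45.0, 38.5 and 27.8 TPM and the MA9-IL-34 libraries 1.38, 1.88 and 1.02 TPM of it. With a difference of -3.96 (SE 0.21, adjusted p = 7.28e-06, limma) Xdh fell the most of the 27 genes from MA9-c-Kit+ to MA9-IL-34 cells. Lsp1, an actin-binding protein of leukocytes, was at 917, 833 and 639 TPM, then at 85.8, 111 and 53.6 TPM, and in MA9-IL-34 cells at 9.92, 7.41 and 4.89 TPM. That last step was -3.31 (SE 0.29, adjusted p = 0.000128), again without overlap. Mpeg1 encodes perforin-2, a pore-forming protein that phagocytes direct at engulfed bacteria. Its levels were 810, 777 and 570 TPM in MA9-c-Kit-, 110, 253 and 57.8 TPM in MA9-c-Kit+, and 26.8, 26.7 and 27.5 TPM in the MA9-IL-34 libraries. The MA9-c-Kit+ libraries were spread over a wide range and the MA9-IL-34 libraries lay within 1 TPM of each other. The difference was -2.08 (SE 0.43, adjusted p = 0.0122), and it missed the threshold without MA9-IL-34 replicate 3 (adjusted p = 0.0501).

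Promoters of such genes are known to be bound by the myeloid factors PU.1 and C/EBP. Of the 32 genes, 26 had at least 1 promoter in the RefSeq table (GRCm38.p6), with 33 windows of 250 bases before the start. No window was at hand for Adgre1, C1qa, Xdh, Lsp1, Msr1 and Csf1r. GAGGAA, the ETS core with a purine flank that PU.1 reads, occurred on either strand in 16 of the 33 windows (48.5%), in those of 13 genes, and in 23.3% of all 32851 windows of the same length. TGCAAT, a core of C/EBP sites, was in 1 member window (3.03%, Ms4a7) against 7.32% of all. TGANTCA, read by AP-1, was in 2 (6.06%, Ms4a7 and Trem2) against 6.75%. CACGTG, read by MITF and TFE factors, was in 0 of 33, against 6.02%, and TGCTGA, a core of MAF sites, in 18.2% against 16.1%. The promoters of the 3 genes with a single window that fell the most from MA9-c-Kit+ to MA9-IL-34 cells among those lower in all comparisons are shown, to set their letters side by side, with GAGGAA or its reverse complement in capitals.
Irf5 (chr6:29526375-29526624, plus strand): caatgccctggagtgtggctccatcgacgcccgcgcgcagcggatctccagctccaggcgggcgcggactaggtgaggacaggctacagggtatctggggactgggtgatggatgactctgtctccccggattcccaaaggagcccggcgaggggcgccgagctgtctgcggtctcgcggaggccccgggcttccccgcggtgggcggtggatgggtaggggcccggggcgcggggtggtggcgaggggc
Trem2 (chr17:48346151-48346400, plus strand): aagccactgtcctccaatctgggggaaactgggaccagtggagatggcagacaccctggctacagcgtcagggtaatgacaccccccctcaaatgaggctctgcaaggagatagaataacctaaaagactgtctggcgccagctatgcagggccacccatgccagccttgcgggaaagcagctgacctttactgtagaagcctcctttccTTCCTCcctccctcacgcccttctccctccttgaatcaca
Mpeg1 (chr19:12460520-12460769, plus strand): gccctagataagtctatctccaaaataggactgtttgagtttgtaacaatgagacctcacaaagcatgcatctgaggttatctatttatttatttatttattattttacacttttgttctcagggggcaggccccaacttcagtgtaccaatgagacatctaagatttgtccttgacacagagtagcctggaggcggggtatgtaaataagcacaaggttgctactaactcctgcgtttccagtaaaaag
Only the Trem2 window of these 3 holds the motif, 40 to 35 bases before the start. A match is a run of letters and no evidence of binding.

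Among the scavenger and pattern receptors, Trem2 and Cd163 fell from MA9-c-Kit+ to MA9-IL-34 cells. Trem2, a lipid-sensing receptor of macrophages and microglia that signals through Tyrobp, was at 84.5, 73.1 and 78.1 TPM in the MA9-c-Kit- libraries and at 9.61, 12.6 and 4.93 TPM in the MA9-c-Kit+ libraries. In MA9-IL-34 cells it was at 0.01, 0.22 and 0.22 TPM, near the bottom of what the table lists. The difference from MA9-c-Kit+ cells was -3.05 (SE 0.27, adjusted p = 0.000143, limma). Cd163, the receptor that takes up haptoglobin-bound hemoglobin, was at 20.2, 21.7 and 39.8 TPM in the MA9-c-Kit- libraries, and at 6.86, 11.7 and 20.9 TPM in the MA9-c-Kit+ libraries. These ranges overlap, and the difference of -1.06 did not pass (adjusted p = 0.0651), whereas with the replicate number as a block it did (adjusted p = 0.0137). MA9-IL-34 cells had 1.37, 3.29 and 2.55 TPM of Cd163, below every other library, and differed from MA9-c-Kit+ cells by -1.97 (SE 0.40, adjusted p = 0.0119). Without MA9-IL-34 replicate 1 that adjusted p was 0.0568. In MA9-c-Kit- replicate 3, which held the most Cd163, the hemoglobin genes were also highest, and their part in the result was not tested.

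Gpnmb, a lysosome-linked glycoprotein of lipid-laden macrophages, divided the cells by c-Kit, and no difference by vector was called. It was at 331, 182 and 317 TPM in MA9-c-Kit-, 6.08, 0.86 and 11.9 TPM in MA9-c-Kit+, and 2.97, 4.54 and 2.27 TPM in the MA9-IL-34 libraries. The difference in MA9-c-Kit+ relative to MA9-c-Kit- cells was -5.60 (SE 0.61, adjusted p = 0.00023, limma). That in MA9-IL-34 relative to MA9-c-Kit+ cells was -0.41 (SE 0.61) and did not pass. With so wide an SE a difference by vector may have been missed. Msr1, which binds modified lipoproteins, was at 4.53 to 11.3 TPM in MA9-c-Kit- libraries and at no more than 0.29 TPM in the other 6. Mrc1, Cd36 and Marco were not tested. Mrc1 (the mannose receptor) stayed at or below 1.10 TPM and Cd36 (a fatty acid and lipoprotein receptor) at or below 0.32 TPM in all libraries. Marco, a collagen-like receptor for bacteria, had 0.57 to 2.32 TPM in the MA9-c-Kit- libraries and was listed at 0 in the 3 MA9-IL-34 libraries.

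Csf1r encodes the receptor of IL-34 itself. The MA9-c-Kit- libraries had 368, 340 and 294 TPM of it, the MA9-c-Kit+ libraries 40.8, 141 and 25.6 TPM, and the MA9-IL-34 libraries 9.55, 13.1 and 13.6 TPM. The groups did not overlap, but within MA9-c-Kit+ cells replicate 2 was 4.25 times the mean of the others. The difference of -2.06 in MA9-IL-34 relative to MA9-c-Kit+ cells (SE 0.50, adjusted p = 0.0262, limma) no longer passed without MA9-IL-34 replicate 1, 2 or 3 (adjusted p = 0.104, 0.0715 and 0.0763). Against MA9-c-Kit- cells the MA9-IL-34 cells differed by -4.69 (SE 0.50, adjusted p = 9.11e-05). 

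Ly6c2, one of the genes behind the Ly6C antigen of inflammatory monocytes, was abundant everywhere and was called in no comparison. It was at 3438, 4350 and 2203 TPM in MA9-c-Kit-, 3078, 3558 and 1833 TPM in MA9-c-Kit+, and 1867, 1774 and 1828 TPM in the MA9-IL-34 libraries. In both groups with the blank vector replicate 2 was highest and replicate 3 lowest. All MA9-IL-34 libraries lay below the lowest MA9-c-Kit- library, with a difference of -0.81 (SE 0.29, adjusted p = 0.0397) that falls short of 2-fold. Without MA9-c-Kit- replicate 3 it was -1.08 (adjusted p = 0.00976) and passed. Its paralogue Ly6c1 had a mean of 88.9 TPM in MA9-c-Kit-, 71.4 TPM in MA9-c-Kit+ and 38.8 TPM in MA9-IL-34 cells, and was lower in MA9-IL-34 relative to MA9-c-Kit- cells (-1.15, adjusted p = 0.000847).

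Adgre1, which encodes the mouse macrophage antigen F4/80, followed another course. It was at 86.8, 56.4 and 48.4 TPM in the MA9-c-Kit- libraries, at 11.7, 41.9 and 5.95 TPM in the MA9-c-Kit+ libraries and at 62.9, 23.9 and 41.0 TPM in the MA9-IL-34 libraries. The MA9-IL-34 libraries overlapped both other groups, and MA9-c-Kit+ replicate 2 was 4.76 times the mean of the other MA9-c-Kit+ libraries. Adgre1 was lower in MA9-c-Kit+ relative to MA9-c-Kit- cells (-2.01, SE 0.60, adjusted p = 0.0274), a call lost without MA9-c-Kit- replicate 1 or 2 or MA9-c-Kit+ replicate 1 or 3 (adjusted p = 0.0933, 0.0623, 0.0797 and 0.0716). Its difference in MA9-IL-34 relative to MA9-c-Kit+ cells was 1.38 (SE 0.60, adjusted p = 0.188) and became 2.11 (adjusted p = 0.0128) without MA9-c-Kit+ replicate 2.

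Ms4a6c, a 4-pass membrane protein of the MS4A family, was at 473, 571 and 428 TPM in MA9-c-Kit-, 118, 374 and 78.5 TPM in MA9-c-Kit+, and 104, 84.0 and 80.8 TPM in the MA9-IL-34 libraries. Here too MA9-c-Kit+ replicate 2 lay between the groups. Ms4a6c was lower in MA9-IL-34 relative to MA9-c-Kit- cells (-2.44, SE 0.46, adjusted p = 0.00231) and in MA9-c-Kit+ relative to MA9-c-Kit- cells (-1.68, adjusted p = 0.0196). The latter missed the threshold without MA9-c-Kit- replicate 1 or 2 or MA9-c-Kit+ replicate 1 (adjusted p = 0.0531, 0.0643 and 0.0651). Its untested relative Ms4a7, a marker of tissue macrophages, was at 0.52 to 1.17 TPM in the MA9-c-Kit- libraries, at no more than 0.05 TPM in MA9-c-Kit+ and at 0.15 to 0.49 TPM in the MA9-IL-34 libraries. Of 12 further MS4A genes 8 were tested, and 2 were lower in MA9-IL-34 relative to MA9-c-Kit+ cells, beside 3.38% of all genes. These were Ms4a4b (-2.55, adjusted p = 0.00492, limma) and Ms4a6d (-1.42, adjusted p = 0.0469).

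The Fc receptors did not share the fall. The activating receptor gene Fcgr4 and, short of the fold limit, Fcgr3 were higher in MA9-IL-34 relative to MA9-c-Kit+ cells, while the inhibitory receptors Fcgr2b and Pirb were not called. Fcgr4, a receptor for IgG2 antibodies that pairs with the signalling chain Fcer1g, was at 35.5, 9.26 and 18.8 TPM in the MA9-c-Kit- libraries. The MA9-c-Kit+ libraries had 9.84, 4.69 and 5.60 TPM and the MA9-IL-34 libraries 29.5, 27.2 and 25.6 TPM. The latter groups were clearly apart, and the MA9-c-Kit- libraries reached from the top of the MA9-c-Kit+ range to beyond the MA9-IL-34 range. The difference in MA9-IL-34 relative to MA9-c-Kit+ cells was 1.94 (SE 0.41, adjusted p = 0.0146, limma) and the mean TPM 4.08-fold higher. The call rested on every MA9-IL-34 library, with an adjusted p of 0.0632, 0.0527 and 0.0551 without replicate 1, 2 and 3. Fcgr4 was lower in MA9-c-Kit+ relative to MA9-c-Kit- cells (-1.40, adjusted p = 0.0258), which missed the threshold without MA9-c-Kit- replicate 1 or 3 or MA9-c-Kit+ replicate 2 or 3 (adjusted p = 0.0712, 0.0561, 0.0685 and 0.0628).

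Fcgr3, the low-affinity activating receptor of natural killer cells and phagocytes, was at 512, 352 and 389 TPM in the MA9-c-Kit- libraries. It was at 181, 241 and 144 TPM in the MA9-c-Kit+ libraries and at 375, 345 and 380 TPM in the MA9-IL-34 libraries. Every MA9-IL-34 library was above every MA9-c-Kit+ library and within or next to the MA9-c-Kit- range. The difference from MA9-c-Kit+ cells was 0.98 (SE 0.19, adjusted p = 0.0103), just under 2-fold. It passed without MA9-c-Kit+ replicate 2 (1.18, adjusted p = 0.0027) or MA9-IL-34 replicate 2 (1.03, adjusted p = 0.0344). Against MA9-c-Kit- cells the MA9-IL-34 cells differed by -0.17 (SE 0.19, adjusted p = 0.489). Fcgr3 was lower in MA9-c-Kit+ relative to MA9-c-Kit- cells (-1.16, adjusted p = 0.00206), and fell just below 2-fold without MA9-c-Kit- replicate 1 or MA9-c-Kit+ replicate 3 (differences of -0.9997 and -0.98).

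Fcgr2b, the inhibitory IgG receptor, varied little. Its levels were 216, 193 and 152 TPM in MA9-c-Kit-, 157, 168 and 111 TPM in MA9-c-Kit+, and 200, 184 and 171 TPM in the MA9-IL-34 libraries, with differences of 0.37, 0.00 and -0.37 (SE 0.18 each) that did not pass. Fcgr1, the high-affinity IgG receptor used to tell macrophages from dendritic cells, was at no more than 0.33 TPM in any library. Pirb, an inhibitory receptor of myeloid cells for MHC class I, set itself apart from the Fc receptors. It was at 517, 397 and 375 TPM in MA9-c-Kit-, 10.4, 19.2 and 7.36 TPM in MA9-c-Kit+, and 6.49, 4.87 and 3.31 TPM in the MA9-IL-34 libraries. Its difference was -5.10 (SE 0.32, adjusted p = 1.29e-05) in MA9-c-Kit+ relative to MA9-c-Kit- cells. It was -1.11 in MA9-IL-34 relative to MA9-c-Kit+ cells (SE 0.32, adjusted p = 0.0517), and without MA9-c-Kit+ replicate 3 it passed (-1.40, adjusted p = 0.02).

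Of 17 genes of Fc receptor signalling, all tested, 3 were higher and 0 lower in MA9-IL-34 relative to MA9-c-Kit+ cells (limma), beside 3.86% and 3.38% of all genes, where 5 and 1 were at an unadjusted p under 0.05. Among them were the Src-family kinase Fgr (1.22, SE 0.17, adjusted p = 0.00168) and the kinase Btk (1.11, SE 0.14, adjusted p = 0.000863). Fcer1g, the chain that carries the signal of Fcgr3 and Fcgr4, had means of 508 ± 26.7 TPM in MA9-c-Kit+ and 641 ± 64.4 TPM in the MA9-IL-34 libraries (SD, n = 3), a difference of 0.33 that did not pass (adjusted p = 0.108). Tyrobp, the chain that serves Trem2, was at 786 to 1307 TPM in MA9-c-Kit+ and 957 to 1132 TPM in the MA9-IL-34 libraries, where Trem2 was almost absent. In MA9-c-Kit+ relative to MA9-c-Kit- cells 8 of the 17 were lower (9.15% of all genes), Fcer1g and Fgr among them, and in MA9-IL-34 relative to MA9-c-Kit- cells 6 were lower (12.7% of all genes) and Btk higher. Neutrophils also carry Fcgr3, Fcgr4 and Fgr, and the 12 neutrophil markers summed to 131 to 330 TPM in MA9-c-Kit+ and 293 to 434 TPM in MA9-IL-34 libraries, which overlap. Of the 9 neutrophil markers tested 0 passed between these groups (limma), 1 being at an unadjusted p under 0.05. Their differences were above 0 for 8 and below 0 for 1, with a median of 0.66 beside 0.01 for all genes tested. The part of neutrophil genes in the Fc receptor results was not tested.

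**Figure D3:**
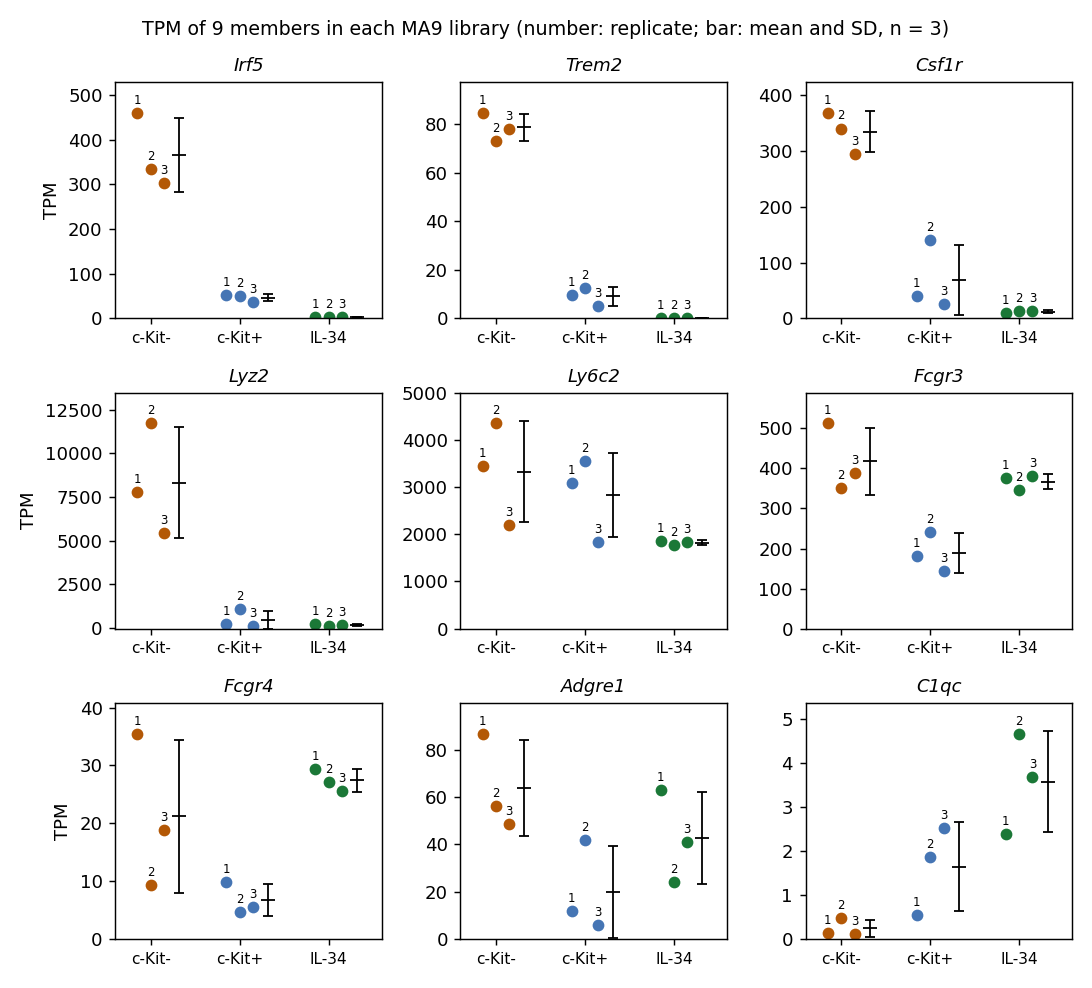
TPM (y axis, linear) of 9 marker genes in each library of the 3 groups (x axis), with the replicate number over each point and the mean and SD of the 3 libraries beside it. Irf5, Trem2, Csf1r and Lyz2 drop from left to right, Ly6c2 stays at 1774 TPM or more, Fcgr3, Fcgr4 and Adgre1 are lowest in MA9-c-Kit+ cells, and C1qc is highest in MA9-IL-34 cells.

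The complement C1q genes were the only marker genes called higher outside the Fc receptors, at very low levels. C1qa, C1qb and C1qc encode the chains of C1q, the molecule that starts the classical complement pathway and that tissue macrophages secrete. C1qc was at 0.13, 0.47 and 0.12 TPM in MA9-c-Kit-, 0.54, 1.86 and 2.53 TPM in MA9-c-Kit+, and 2.39, 4.67 and 3.68 TPM in the MA9-IL-34 libraries. C1qa was at 0.16, 0.57 and 0.07 TPM, then 0.65, 2.54 and 2.04 TPM, and 1.55, 2.5 and 2.82 TPM in the MA9-IL-34 libraries. C1qb was at 0.42 to 1.76 TPM in MA9-c-Kit-, 0.82 to 2.22 TPM in MA9-c-Kit+ and 1.52 to 3.76 TPM in the MA9-IL-34 libraries. For C1qa and C1qc every c-Kit+ library of either vector was above every MA9-c-Kit- library, and MA9-c-Kit+ and MA9-IL-34 libraries overlapped for all 3 genes.

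C1qa and C1qc reached 1 TPM in no MA9-c-Kit- library, so the filter fixed their direction against MA9-c-Kit- cells. C1qc was higher in MA9-IL-34 relative to MA9-c-Kit- cells (1.86, SE 0.33, adjusted p = 0.00149), as was C1qa (1.38, SE 0.31, adjusted p = 0.00593). For C1qb the difference of 0.96 (adjusted p = 0.0445) was under 2-fold and passed without MA9-IL-34 replicate 1 (1.22) or MA9-c-Kit- replicate 2 (1.24). The calls in MA9-c-Kit+ relative to MA9-c-Kit- cells of C1qa (1.06, adjusted p = 0.0257) and C1qc (1.02, adjusted p = 0.0353) were fragile. C1qa missed the threshold without MA9-c-Kit- replicate 1 or 3 or MA9-c-Kit+ replicate 2 or 3 (adjusted p of 0.0692 to 0.0775). C1qc missed it without any 1 MA9-c-Kit- library, MA9-c-Kit+ replicate 2 or 3, or MA9-IL-34 replicate 3 (adjusted p of 0.0519 to 0.103).

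Of 21 further complement components and receptors 15 were tested, and only Itgam was called in MA9-IL-34 relative to MA9-c-Kit+ cells. Of all genes 3.86% were higher and 3.38% lower there. Itgam, the alpha chain of complement receptor 3 and known as CD11b, was at 25.5, 64.5 and 14.7 TPM in MA9-c-Kit+ and 113, 72.5 and 89.7 TPM in the MA9-IL-34 libraries (1.60, SE 0.43, adjusted p = 0.0412). Against MA9-c-Kit- cells 1 was higher and 7 were lower in MA9-IL-34 cells (beside 11.3% and 12.7% of all genes). In MA9-c-Kit+ cells these counts were 1 and 4 (beside 5.66% and 9.15%). The higher gene was each time C2, a component of the classical pathway that C1q starts (differences of 2.15 and 1.94). C1q is a product of resident macrophages, whose 22 other markers were at 834 to 919 TPM in sum in MA9-c-Kit-, 248 to 381 TPM in MA9-c-Kit+ and 165 to 208 TPM in the MA9-IL-34 libraries. A mean of 1 TPM was reached by 11, 8 and 10 of the 22, and Clec4f and Lyve1 were listed at 0 in all MA9-c-Kit+ and MA9-IL-34 libraries. Cd68 alone had means of 369, 200 and 41.4 TPM. The untested Cd5l was at 0, 0 and 0.10 TPM in the MA9-c-Kit- libraries. It was at 0.03, 0.43 and 0.78 TPM in MA9-c-Kit+ and 0.97, 2.06 and 1.70 TPM in MA9-IL-34 libraries. Of the 22 markers 5 had every MA9-IL-34 library above and 3 below the MA9-c-Kit+ libraries. Of all genes tested 18.4% and 15.8% did. Of the 12 markers tested, 1 was higher and 2 were lower in MA9-IL-34 relative to MA9-c-Kit+ cells, beside 3.86% and 3.38% of all genes. These were Vcam1, higher (4.09, SE 0.16, adjusted p = 1.39e-06, limma), and Cd68 and Ctsl, lower (-2.22 and -1.95). Against MA9-c-Kit- cells 2 were higher, Vcam1 and Slc40a1, and 8 lower in MA9-IL-34 cells (beside 11.3% and 12.7% of all genes). In MA9-c-Kit+ relative to MA9-c-Kit- cells 1, Vcam1, was higher and 7 were lower (beside 5.66% and 9.15%). Slc40a1, the iron exporter, was at 1.25, 0.24 and 14.35 TPM in MA9-c-Kit-, 3.17, 1.70 and 7.98 TPM in MA9-c-Kit+ and 22.1, 29.6 and 21.4 TPM in MA9-IL-34 cells (2.84 relative to MA9-c-Kit- cells, SE 0.82, adjusted p = 0.0174). The part of host macrophages in the C1q result was not tested.

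Of the 8 lysozymes and secreted or matrix proteins, Lyz1 and Vcan had passed the filter only through MA9-c-Kit- libraries. The other 6 were lower in both comparisons with MA9-c-Kit- cells (beside 12.7% of all genes for MA9-IL-34 and 9.15% for MA9-c-Kit+), and 3 of them, F13a1, Lgals3 and Wfdc17, fell again from MA9-c-Kit+ to MA9-IL-34 cells. Lyz2 was the most abundant of the 32 genes, at 7805, 11715 and 5461 TPM in the MA9-c-Kit- libraries. In MA9-c-Kit+ cells it was at 245, 1072 and 127 TPM and in MA9-IL-34 cells at 223, 135 and 154 TPM. MA9-c-Kit+ replicate 2 held 5.75 times the mean of the other MA9-c-Kit+ libraries, and the MA9-IL-34 libraries lay among the lower ones. The difference was -4.61 (SE 0.66, adjusted p = 0.000916) in MA9-c-Kit+ relative to MA9-c-Kit- cells and -0.95 (SE 0.66, adjusted p = 0.421) in MA9-IL-34 relative to MA9-c-Kit+ cells. Lyz1, the Paneth cell lysozyme, whose sequence is set beside that of Lyz2 above, was at 0.40 to 1.40 TPM in all libraries.

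Lgals3 encodes galectin-3, a sugar-binding protein that macrophages release. Its levels were 907, 913 and 973 TPM in MA9-c-Kit-, 51.9, 77.9 and 58.5 TPM in MA9-c-Kit+, and 23.1, 15.3 and 12.1 TPM in the MA9-IL-34 libraries. The groups were far apart and tight, and the last step was -1.86 (SE 0.22, adjusted p = 0.000665). F13a1, the transglutaminase chain of coagulation factor XIII, was at 1060, 1076 and 711 TPM in MA9-c-Kit-, 423, 519 and 453 TPM in MA9-c-Kit+, and 144, 258 and 163 TPM in the MA9-IL-34 libraries. It fell by 1.34 (SE 0.23, adjusted p = 0.00526) from MA9-c-Kit+ to MA9-IL-34 cells. Its difference of -1.01 (adjusted p = 0.00877) in MA9-c-Kit+ relative to MA9-c-Kit- cells stood at the 2-fold limit and went under it without MA9-c-Kit- replicate 1 or 2 or MA9-c-Kit+ replicate 1 or 3 (-0.92, -0.90, -0.94 and -0.99).

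Wfdc17, a small secreted protein of activated macrophages, was at 360, 437 and 759 TPM in MA9-c-Kit-, 10.03, 24.7 and 17.9 TPM in MA9-c-Kit+, and 5.41, 4.07 and 1.5 TPM in the MA9-IL-34 libraries. The difference between the latter was -2.01 (SE 0.43, adjusted p = 0.0142), with an adjusted p of 0.0548 without MA9-IL-34 replicate 3. Apoe, the lipid carrier of macrophages, was at 639, 805 and 362 TPM, then 97.0, 114 and 75.4 TPM, and 32.1, 56.1 and 57.4 TPM in the MA9-IL-34 libraries. All 3 MA9-IL-34 libraries were lower, but -0.99 (SE 0.32, adjusted p = 0.0789) did not pass. Emilin2, an extracellular glycoprotein, was at 236, 192 and 248 TPM in the MA9-c-Kit- libraries. It was at 6.93, 15.5 and 13.8 TPM in MA9-c-Kit+ and 6.5, 7.04 and 4.71 TPM in the MA9-IL-34 libraries, which overlap, and the difference of -0.83 (adjusted p = 0.0793) passed only without MA9-c-Kit+ replicate 1 (-1.16, adjusted p = 0.00719). Vcan, a proteoglycan of classical monocytes, was at 19.6, 11.6 and 52.9 TPM in the MA9-c-Kit- libraries. It was at 0.08, 0.06 and 0.48 TPM in the MA9-c-Kit+ libraries and at 0.54, 0.67 and 0.50 TPM in the MA9-IL-34 libraries, under 1 TPM in all 6.

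Across the list, MA9-c-Kit+ replicate 2 was the highest MA9-c-Kit+ library for 17 of the 26 genes whose mean over the 9 libraries was 1 TPM or more, replicate 1 for 3 and replicate 3 for 6. How often replicate 2 was highest over all genes was not counted, so this share cannot be called particular to the markers. For Lyz2, Adgre1, Csf1r, Ms4a6c and Mpeg1 it held 5.75, 4.76, 4.25, 3.80 and 3.02 times the mean of the other MA9-c-Kit+ libraries, whereas for Xdh and Irf5 the ratios were 1.06 and 1.12. Gpnmb went the other way, at 0.096 of that mean. The dendritic cell markers were also highest there, 8 genes summing to 86.2 TPM against 12.9 and 24.3 TPM, and their part in these ratios was not tested.

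**Figure D4:**
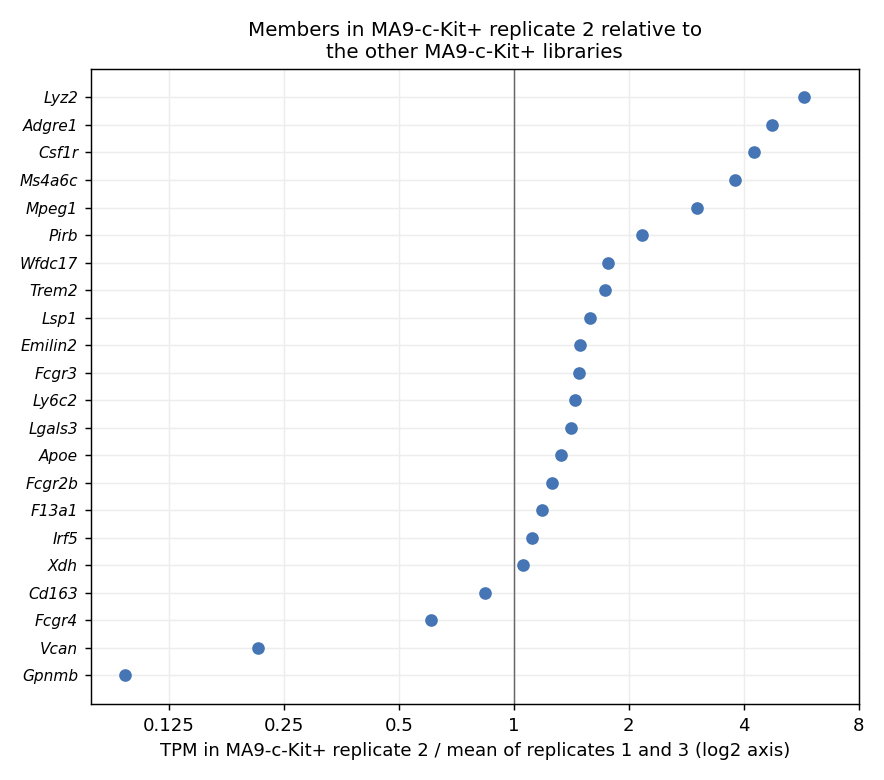
Ratio of the TPM in MA9-c-Kit+ replicate 2 to the mean of MA9-c-Kit+ replicates 1 and 3 (x axis, log2 scale) for the 22 marker genes whose mean reached 10 TPM in some group (y axis, sorted). Of these, 18 lie above 1, from Xdh at 1.06 to Lyz2 at 5.75, and Gpnmb lies lowest at 0.096.

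Of 21 other monocyte markers 20 were tested, and 7 were lower and 0 higher in MA9-IL-34 relative to MA9-c-Kit+ cells (limma), beside 3.38% and 3.86% of all genes, with 12 and 1 at an unadjusted p under 0.05. The cysteine protease Ctss fell from a mean of 60.5 ± 12.6 to 2.42 ± 0.46 TPM (SD, n = 3), a difference of -4.16 (SE 0.17, adjusted p = 1.39e-06). Tlr2, a sensor of bacterial lipoproteins, changed by -2.98 (adjusted p = 2.51e-05), Cybb, the oxidase subunit that makes superoxide, by -3.47 (adjusted p = 5.63e-05), and Irf8, a transcription factor needed for monocytes, by -4.90 (adjusted p = 8.25e-05). In MA9-c-Kit+ and in MA9-IL-34 cells 16 of the 20 were lower than in MA9-c-Kit- cells (beside 9.15% and 12.7% of all genes), and Plac8 was higher in both.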

How the data were processed

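Total RNA (TRIzol) of sorted leukemia cells was made into libraries with the Illumina TruSeq kit per the labels. The authors deposited 1 table of TPM for 9 libraries and 55536 genes. The aligner, genome build and annotation are not given in the sources used here, the study's methods name a microarray where the labels name RNA sequencing, and depth is unknown. The header of 1 column lacks the sign after c-Kit, and it was taken as MA9-c-Kit- replicate 3, since each MA9-c-Kit+ library is named in full. Values were transformed to log2(TPM + 1), a scale that understates changes of low genes. The 13722 genes that reached 1 TPM in 3 or more libraries were fitted with limma 3.58.1 in R 4.3.3 (trended eBayes, all 9 libraries), and p-values were adjusted by Benjamini-Hochberg within each comparison. The study's limits of 2-fold and adjusted p under 0.05 gave calls. The procedure was tested on simulated data.

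The members and gene lists were chosen with earlier results of these data known. All 32 members are described, by range where under 10 TPM in every group and not called against MA9-c-Kit+ cells. Of other lists, up to 4 called genes with the smallest adjusted p per comparison were named. The library values of C1qa and C1qc, and Fcer1g, Tyrobp, Plac8, Slc40a1, Cd5l and Il34, were added after their values were seen. Some genes of these lists are not reported here. Positions and transcripts are from GENCODE M21 (GRCm38), where 55450 identifiers matched, and promoters from RefSeq (GRCm38.p6).

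Between the groups with the blank vector, deviations from the group means correlated weakly for same-numbered libraries (r = 0.202, 0.239 and 0.443). For differently numbered libraries r ranged from -0.324 to 0.159, the latter for MA9-c-Kit- replicate 1 with MA9-c-Kit+ replicate 2. Deviations within a group are tied to each other, so these values do not settle whether the numbers pair the libraries. A shared origin would rest on these correlations alone, as the labels do not give it. The main fit therefore treated the libraries as independent, and the fit blocked on replicate is printed where it changed a call. Alternatives were other filters, pseudocounts of 0.1 and 0.5, only the groups compared, the block, median-of-ratios scaling, leaving out mitochondrial genes, adjusted p alone, eBayes without trend, and each library left out in turn.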

Additional observations from a re-analysis of the deposited data

How the results depend on the processing

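Of the recomputed differences of single members, 1408 kept their direction and their side of the threshold, 51 lost and 25 gained a call, and 13 changed sign without being called in either case. The counts of lower members moved by less than 1.5 times except without MA9-c-Kit- replicate 1 (13 against 20 in MA9-c-Kit+ relative to MA9-c-Kit- cells). With single libraries left out they ranged from 7 to 11 (MA9-IL-34 against MA9-c-Kit+), 16 to 18 (against MA9-c-Kit-) and 13 to 20 (MA9-c-Kit+ against MA9-c-Kit-), and the counts of higher members from 0 to 3, 2 to 3 and 0 to 2.

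In MA9-c-Kit+ relative to MA9-c-Kit- cells the count of higher members was 0 in place of 2 with no filter, with a filter of 5 TPM, which leaves no C1q gene, and with only the 6 libraries compared. In MA9-IL-34 relative to MA9-c-Kit- cells it was 0 with the filter of 5 TPM, and in MA9-IL-34 relative to MA9-c-Kit+ cells 2 with adjusted p alone, Fcgr3 joining Fcgr4. Apart from the filter that leaves out C1q, the cause was not tested. The replicate block gave 7 lower members in place of 10 in MA9-IL-34 relative to MA9-c-Kit+ cells, where Csf1r, Mpeg1 and Wfdc17 missed the threshold (adjusted p = 0.0843, 0.0608 and 0.0767). Same-numbered libraries of these groups did not deviate together (r = -0.15, -0.279 and -0.0946, and -0.000871, -0.0727 and -0.08 with MA9-c-Kit- libraries), and beyond Cd163 above the block changed no other call of a member. No filter (adjusted p = 0.0719) and only the 6 libraries compared (0.0675) also ended the call of Csf1r in this comparison, and they ended those of Adgre1 (0.0734 and 0.054), Fcgr4 (0.0671 and 0.0711) and Ms4a6c (0.0552 and 0.0548) in MA9-c-Kit+ relative to MA9-c-Kit- cells. Pirb passed in MA9-IL-34 relative to MA9-c-Kit+ cells with the filter of 5 TPM, either pseudocount or either rescaling (adjusted p of 0.035 to 0.0482).

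The sign changes were all of differences that were not called. In MA9-IL-34 relative to MA9-c-Kit- cells Fcgr2b ranged from -0.1423 to 0.1105 with single libraries left out (above 0 without MA9-c-Kit- replicate 1 or 2 or MA9-IL-34 replicate 2 or 3), and was at 0.01008 without mitochondrial genes. Ly6c2 ranged from -0.5087 to 0.04591 in MA9-c-Kit+ relative to MA9-c-Kit- cells (above 0 without MA9-c-Kit+ replicate 3). In MA9-IL-34 relative to MA9-c-Kit+ cells C1qa ranged from -0.01677 to 0.5339 (below 0 without MA9-c-Kit+ replicate 1), Gpnmb from -1.201 to 0.1966 (above 0 without MA9-c-Kit+ replicate 3), Lyz1 from -0.03328 to 0.1008 (below 0 without MA9-IL-34 replicate 2 or MA9-c-Kit+ replicate 3) and Msr1 from -0.08745 to 0.05466 (above 0 without MA9-IL-34 replicate 1 or 3 or MA9-c-Kit+ replicate 3).

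Groups of 3 libraries and unknown depth limit all of these values, and levels under about 1 TPM, such as those of C1qa and C1qc in MA9-c-Kit- cells and of Trem2 in MA9-IL-34 cells, are the least certain. The calls of genes outside the 32 were not recomputed under the alternatives.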

Other observations

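Lipid handling and polarisation genes of macrophages, which belong in no comparison above, were split. Of 20 lipid handling genes 19 were tested, and in MA9-IL-34 relative to MA9-c-Kit+ cells Cd63, a tetraspanin of late endosomes, was higher (means of 572.5 ± 33.7 and 168 ± 30.4 TPM, SD, n = 3, adjusted p = 0.000385, limma). Lpl, the lipase that frees fatty acids from lipoproteins, was lower (0.50 ± 0.25 and 9.29 ± 4.39 TPM, adjusted p = 0.00155), as was Cd9, another tetraspanin (a difference of -1.25 on the log2(TPM + 1) scale, adjusted p = 0.000799). That makes 1 higher and 2 lower of the 19, beside 3.86% and 3.38% of all genes. The neighbouring lectin genes of alternatively activated macrophages moved apart. Mgl2 was at 14.0, 38.8 and 7.14 TPM in MA9-c-Kit+ and 122.6, 122 and 129 TPM in MA9-IL-34 cells (2.89, SE 0.53, adjusted p = 0.00713), and Clec10a at 10.4, 18.6 and 8.55 TPM and 3.14, 2.38 and 1.77 TPM (-1.93, SE 0.30, adjusted p = 0.00311). Of the 14 alternatively activated genes 7 were tested, and only these 2 were called, 1 higher and 1 lower, beside 3.86% and 3.38% of all genes. Of 14 classically activated genes 8 were tested, and limma called 0 between these groups (beside the same shares), with 1 higher at an unadjusted p under 0.05.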
